A study of Mus musculus with 96 samples.

Results

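The genes described here are 9 ion channel genes of pancreatic islets: the subunits of the ATP-sensitive potassium (KATP) channel (Abcc8 and Kcnj11), 5 subunits of voltage-gated calcium channels (Cacna1a, Cacna1c, Cacna1d, Cacnb2 and Cacnb3), the cation channel Trpm5 and the inward rectifier Kcnj5. They were taken by gene symbol, 9 of the 21990 genes listed in the deposited table, of which 20155 have values. Trpm5 was included because its lower value at week 8 had been seen in these data, so its week 8 values are given as a description with no test.

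Male C57BL/6N mice, bought at 4 weeks of age, received a chow diet (CD, 13.5% fat) or a high-fat diet (HFD, 60% fat) for 4, 8, 12, 16, 20 or 24 weeks. Islets were freed with collagenase and picked by hand, and liver came from the same animals. Poly(A) RNA was sequenced from 4 mice per diet and week, which gives 12 islet groups and 48 islet libraries, with 48 liver libraries beside them. No genotype, drug or other treatment set the groups apart, and the age at the first day of diet was not given in the labels. The islets of a mouse hold beta, alpha, delta and other cells together, so fewer cells of a type and less RNA per cell cannot be told apart in any value below.

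In a beta cell, glucose metabolism raises ATP, which closes KATP channels and lets the membrane depolarize. Depolarization opens voltage-gated calcium channels, and the calcium that enters triggers the release of insulin. TRPM5 is opened by intracellular calcium and carries sodium, which adds to the depolarization, whereas channels with a KCNJ5 subunit open on signals from Gi-coupled receptors and oppose it.

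All 9 genes were placed on GRCm38 by the deposited table. Kcnj11 (chr7:46091720-46100867) and Abcc8 (chr7:46104523-46180039) are neighbours on the minus strand, with 3655 bases between them. The pore subunits lie at chr8:84338526-84640251 (Cacna1a, plus strand), chr6:118587240-119197496 (Cacna1c, minus strand) and chr14:30039936-30491156 (Cacna1d, minus strand). The beta subunits lie at chr2:14604053-14988811 (Cacnb2, plus strand) and chr15:98628430-98644536 (Cacnb3, plus strand). Trpm5 lies at chr7:143071091-143094642 and Kcnj5 at chr9:32314706-32344380, both on the minus strand. The table gives 1 value per gene and lists between 4 transcripts (Kcnj11) and 61 (Cacna1c) for it, so no isoform is told apart.

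Promoter windows of 300 bases, 250 before and 50 after a transcription start, were found in RefSeq (GRCm38.p6) for 6 of the 9 genes. Those of Cacna1d and Cacnb2 are shown because both genes were lower in HFD islets over the weeks and varied together, and that of Trpm5 because its week 8 values put it in the group. They read 5′ to 3′ on the strand of the gene, from chr14:30491107-30491406 (minus), chr2:14823842-14824141 (plus) and chr7:143094593-143094892 (minus), with matches to the searched motifs in capitals. Cacna1d and Cacnb2 each have another window (chr14:30353437-30353736 and chr2:14604056-14604355), and in both of these no motif was matched.
Cacna1d: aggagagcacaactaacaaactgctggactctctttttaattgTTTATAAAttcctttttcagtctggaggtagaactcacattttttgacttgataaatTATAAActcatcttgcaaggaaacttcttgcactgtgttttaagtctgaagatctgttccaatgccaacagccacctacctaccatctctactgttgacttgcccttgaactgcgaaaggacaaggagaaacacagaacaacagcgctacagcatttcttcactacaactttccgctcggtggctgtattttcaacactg
Cacnb2: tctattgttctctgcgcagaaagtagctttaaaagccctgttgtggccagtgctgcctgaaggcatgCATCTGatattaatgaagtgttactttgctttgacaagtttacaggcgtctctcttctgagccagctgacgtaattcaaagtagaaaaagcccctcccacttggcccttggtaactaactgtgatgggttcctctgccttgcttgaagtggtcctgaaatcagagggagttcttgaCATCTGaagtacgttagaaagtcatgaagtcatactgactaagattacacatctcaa
Trpm5: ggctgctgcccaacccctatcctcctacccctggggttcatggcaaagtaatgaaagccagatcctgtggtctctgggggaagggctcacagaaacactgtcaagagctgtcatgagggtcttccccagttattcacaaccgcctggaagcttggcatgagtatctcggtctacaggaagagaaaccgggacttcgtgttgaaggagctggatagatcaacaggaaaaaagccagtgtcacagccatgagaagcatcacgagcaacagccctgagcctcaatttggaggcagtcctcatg
The motifs searched on both strands were CAGATG, an E-box of the NEUROD1 type, then TGCTGAC of the MAF type, then CTAATG of the PDX1 type, then TGACGTCA, the cAMP response element, and TATAAA, the TATA box. In the Cacna1d window TATAAA was matched 3 times, at -207, -205 and -150 from the start, the first pair overlapping on opposite strands, and 13.6% of the 32817 windows of this length hold that motif. The Cacnb2 window holds CAGATG on the opposite strand at -183 and at -7, and 17.2% of all windows hold it. It was also matched in windows of Cacna1c, at -233 and at -217, and of Cacnb3, at -149, which are not shown. None of the 5 motifs was matched in the windows of Trpm5 and Kcnj5. The motifs of the MAF type (in 4.67% of all windows), of the PDX1 type (in 7.36%) and of the cAMP response element (in 1.79%) were not matched in any window found.

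Expression was deposited as FPKM, fragment counts scaled by transcript length and library size, with no read counts, so the depth behind a single value is unknown. Beta cell markers were high in all islet libraries, with 53.7% to 75.1% of all FPKM in Ins1 and Ins2, and no gene of the beta, alpha, delta and PP cell marker lists was at 0 in any islet library. No pair of libraries held identical values, and the median correlation of an islet library with its own group was at least 0.976. The summed alpha cell list was lower in HFD islets without overlap from week 8 on (at week 24, 1220 to 2360 FPKM against 7230 to 13200 in CD, 6 of 6 genes). So was the summed delta cell list at all weeks (at week 24, 330 to 634 against 2320 to 2960, 4 of 4 genes), and the summed PP cell list from week 8 on. Fewer single genes were lower without overlap early: 1 of 4 delta genes at week 4, and 4 of 6 alpha, 2 of 4 delta and 0 of 2 PP genes at week 8. Acinar markers were lower without overlap at weeks 12 (9 of 15 genes) and 16 (14 of 15). Summed beta cell markers, mostly Ins1 and Ins2, were higher without overlap at weeks 12 and 16 and overlapped at the other weeks. The ranges were 779000 to 924000 FPKM in HFD against 582000 to 628000 in CD at week 12 (3 of 10 genes). At week 16 they were 730000 to 921000 against 598000 to 688000 (5 of 10 genes). Summed stromal markers, mostly Rgs5, were higher from week 16 on (at week 24, 54.3 to 84.1 FPKM against 36.5 to 42.7, 3 of 7 genes). At week 16, 2 of 7 stromal genes were higher without overlap, and at week 20 1 was higher and 1 lower. Summed endothelial markers were higher at weeks 20 and 24 (220 to 305 against 180 to 200 at week 24, 4 of 6 genes). Summed macrophage markers overlapped between the diets at every week. Summed ductal markers were lower at week 16 (6 of 10 genes). At week 24 their sum was higher, although 1 of 10 genes was higher and 2 were lower without overlap. The hepatocyte list, in which Cps1 was at 0 in 20 and Hpd in 18 islet libraries, was lower from week 16 on in its sum. Most of that sum is Ttr, a gene that is also in the alpha cell list.

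The 9 genes differed widely in level. Over the 48 islet libraries, Abcc8, which encodes the sulfonylurea receptor SUR1, had a median of 269 FPKM (199 to 379), and Kcnj11, the Kir6.2 pore of the same channel, had 58.3 FPKM (40.2 to 74.9). Trpm5 had a median of 41.9 FPKM (1.77 to 75.9). Among the calcium channel genes the medians were 27.0 FPKM for Cacnb3, 17.7 for Cacna1d, 13.4 for Cacna1a, 7.855 for Cacnb2 and 5.555 for Cacna1c. Cacna1d and Cacna1c encode the pores of the L-type channels CaV1.3 and CaV1.2, Cacna1a that of the P/Q-type channel CaV2.1, and Cacnb2 and Cacnb3 the cytoplasmic beta subunits that carry a pore to the membrane. Kcnj5, which encodes the GIRK4 pore, did not pass 0.21 FPKM in any islet library. In liver, Abcc8 reached 1 FPKM in 1 of 48 libraries (1.36 FPKM), and the highest liver value of the other 8 genes was 0.85 FPKM, for Cacna1d.

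**Figure D1:**
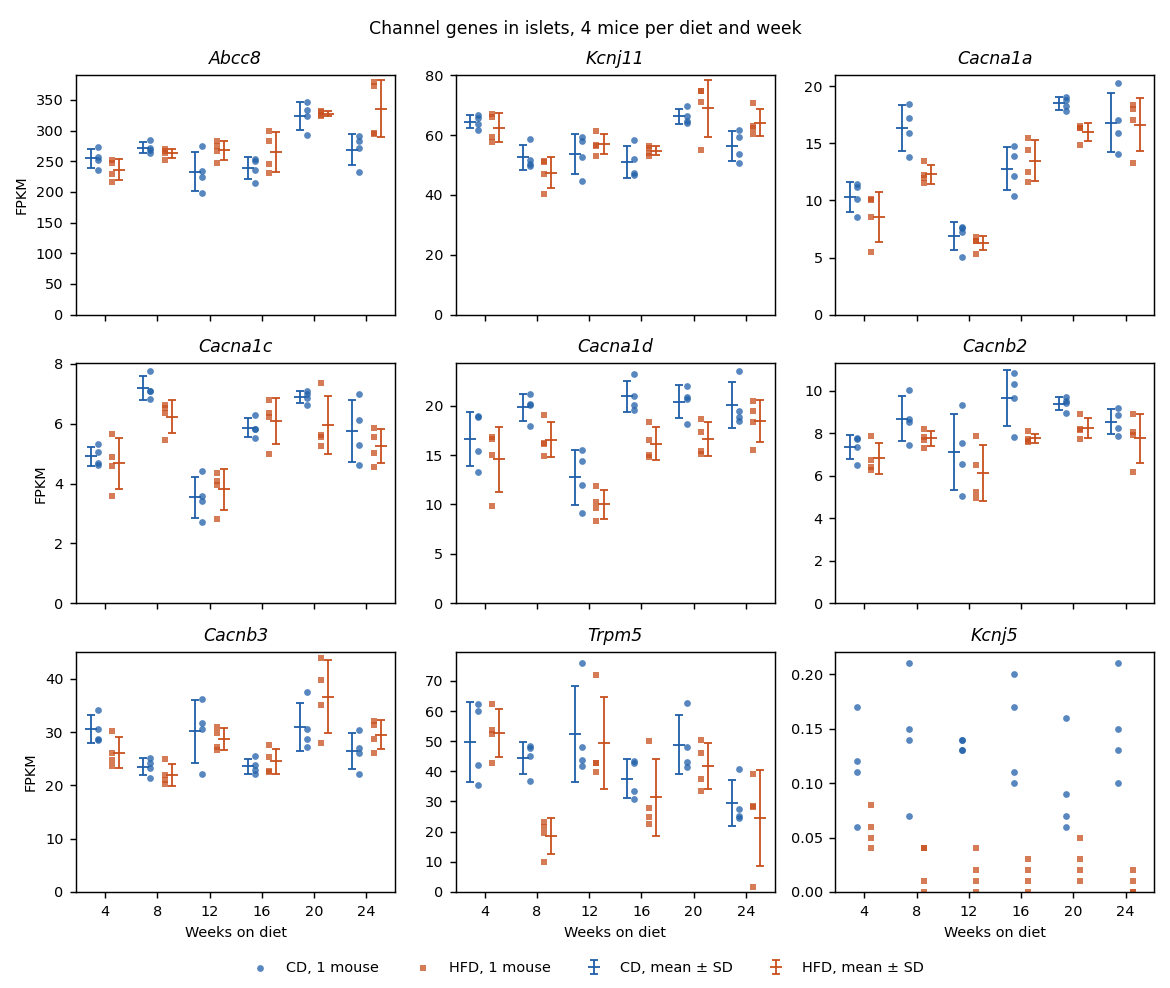
FPKM (linear axes from 0) of the 9 channel genes in islets against weeks on diet. Each point is 1 mouse on CD (circles) or HFD (squares), and bars beside the points give mean ± SD of 4 mice, except for Kcnj5, where libraries listed at 0 are shown without a mean. Trpm5 at week 8 and Kcnj5 from week 8 on show HFD points below all CD points, and the 4 calcium channel genes Cacna1a, Cacna1c, Cacna1d and Cacnb2 have their lowest group means at week 12.

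To ask whether the diet changed the channels at each stage, the 4 HFD and 4 CD islet libraries of a week were compared by limma on log2(FPKM + 1), with Benjamini-Hochberg adjustment over all genes tested. Genes below 1 FPKM in more than 4 of the 8 libraries were left out, a filter that 8 of the 9 genes passed at every week and Kcnj5 at none (with Trpm5 at week 8 kept out of the test, 7 were tested there). Of these genes, Cacna1a fell at week 8 and Cacna1d fell at week 16. Over all tested genes the shares called higher and lower in HFD islets were 0 and 0% at week 4, 0.602% and 4.67% at week 8, 2.18% and 2.35% at week 12, 3.3% and 5.15% at week 16, 1.53% and 3.21% at week 20, and 6.57% and 1.73% at week 24. Values of the 2 diets did not overlap, again higher and lower, for 1.5% and 2.72%, 1.43% and 15.8%, 6.91% and 3.47%, 6.64% and 8.77%, 4.84% and 9.76%, and 13.7% and 2.41% of tested genes in the same order of weeks. Among the 8 genes, non-overlapping values were seen in Cacna1a and Cacna1c, beside Trpm5 that was chosen there, at week 8, Cacna1d at week 16 and Cacna1a and Cacnb2 at week 20, all lower in HFD islets, and in Abcc8 at week 24, higher. None passed at weeks 4, 12, 20 and 24, where Cacnb3 at week 4, Abcc8 and Cacna1d at week 12, Cacna1a, Cacna1d and Cacnb2 at week 20 and Abcc8 and Kcnj11 at week 24 had an unadjusted p under 0.05. In the same order of weeks, 7.38%, 17.4%, 25.7% and 23.3% of all tested genes did, beside 1, 2, 3 and 2 of these 8 genes.

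Abcc8 had its highest group means late, in both diets. The order ran from HFD week 24 (336 FPKM) over HFD week 20 (328) and CD week 20 (324) to CD week 12 (233), and only the step from CD week 20 to the next group, CD week 8 (272), separated neighbours without overlap. At week 24 the CD mice had 291, 271, 282 and 232 FPKM and the HFD mice 295, 373, 379 and 295. All 4 HFD values lay above the CD values, although a pair of them cleared the highest CD mouse only narrowly. The difference was +0.31 on the log2 scale (SE 0.101), with an adjusted p of 0.0701 by limma, and 13.7% of all tested genes were higher without overlap at that week. It passed without HFD611 (+0.37, adjusted p = 0.0345), without HFD617 (+0.37, adjusted p = 0.0448) and when all 48 libraries shared a fit (adjusted p = 0.0108), in fits that called 8.29%, 4.82% and 10.1% of all genes higher, and the values overlapped with Ins1 and Ins2 left out of the library totals. Endothelial and stromal markers were also higher in these HFD libraries, by the values above, and their part in the difference was not tested.

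Kcnj11 kept a narrower range. Its group means ran from 68.9 FPKM at HFD week 20 to 47.4 at HFD week 8, and each of the 11 neighbouring pairs in that order overlapped. At week 24 the CD mice had 61.7, 53.6, 59.4 and 50.8 FPKM and the HFD mice 60.5, 62.3, 70.6 and 63.0, so a single HFD mouse lay within the CD range. The log2 difference was +0.18 (SE 0.0821, limma adjusted p = 0.186). With Ins1 and Ins2 left out of the library totals, Abcc8 passed at week 12 (+0.50, adjusted p = 0.00112) and week 16 (+0.35, adjusted p = 0.00518), as did Kcnj11 (+0.38, adjusted p = 0.036, and +0.30, adjusted p = 0.00693), in fits that called 25.7% and 41.1% of all genes higher. The insulin genes took 53.7% to 59.2% of FPKM in CD and 67.3% to 71.4% in HFD islets at week 12, and 60.5% to 65.3% against 67.9% to 73.8% at week 16. Leaving them out moved the median difference of all genes from 0.01 to 0.26 at week 12 and from 0.01 to 0.19 at week 16.

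Cacna1d had a lower mean in HFD than in CD islets at 6 of 6 weeks, as did Cacnb2. At week 16 the CD mice had 20.1, 20.9, 19.5 and 23.2 FPKM and the HFD mice 16.6, 18.3, 15.0 and 14.8. The difference was -0.36 on the log2 scale (SE 0.079, limma adjusted p = 0.0113). The groups did not overlap, as for 8.77% of tested genes in that direction, and 5.15% of tested genes were called lower at week 16. At week 8 the CD mice had 21.2, 18.0, 20.1 and 20.1 FPKM and the HFD mice 16.2, 14.9, 16.1 and 19.1, the highest HFD mouse, HFD217, lying above the lowest CD mouse. Without HFD217 the week 8 difference passed (-0.31, adjusted p = 0.0204), and without HFD511 so did that of week 20 (-0.34, adjusted p = 0.0185), in fits that called 13.4% and 9.55% of all genes lower, against 4.67% and 3.21% with these libraries. At week 12, leaving out CD304 had the same result (-0.44, adjusted p = 0.0377, with 4.88% of all genes called lower).

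At week 16, 6 of 6 alpha cell markers (summed level 9140 to 14000 FPKM in CD and 2050 to 4180 in HFD islets) and 14 of 15 acinar markers (40000 to 73100 against 6560 to 21000) were lower in HFD islets without overlap, beside the higher insulin share. Their part in the Cacna1d difference was not tested. With the insulin genes left out of the totals, Cacna1d at week 16 differed by -0.17 (adjusted p = 0.111) against a median of all genes of +0.19. With all 48 libraries in a single fit the difference of -0.36 had an adjusted p of 0.0856.

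Cacna1a was called lower in HFD islets at week 8. At week 8 the CD mice had 17.2, 13.8, 18.5 and 15.9 FPKM and the HFD mice 12.3, 11.5, 11.9 and 13.5. All HFD values lay below the CD values, the highest of them only just below the lowest CD mouse, CD205. The log2 difference was -0.38 (SE 0.0858, limma adjusted p = 0.0331), at a week where 4.67% of tested genes were called lower, 15.8% were lower without overlap and the median of all tested genes was -0.11. The call was lost under median ratio scaling (-0.26, adjusted p = 0.133), in the fit of all 48 libraries (adjusted p = 0.0614), with no filter on low values (adjusted p = 0.07) and without CD203, CD207, CD208, HFD211, HFD212 or HFD213 (-0.39 to -0.32). Alpha cell markers were lower at week 8 too (11300 to 13600 FPKM in CD, 6940 to 10200 in HFD, 4 of 6 genes), as was the summed level of the neuronal list (94.6 to 105 against 83.8 to 87.1, 1 of 6 genes), and their part in the difference was not tested.

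At week 20 Cacna1a was again lower without overlap, with 17.8, 18.3, 18.8 and 19.1 FPKM in CD and 14.9, 16.4, 16.3 and 16.5 in HFD mice. The difference of -0.20 did not pass (SE 0.0556, limma adjusted p = 0.0681), and 9.76% of tested genes were lower without overlap. Cacnb2 was lower without overlap at the same week, with 9.42, 9.51, 8.93 and 9.68 FPKM in CD and 8.19, 8.88, 8.15 and 7.71 in HFD mice (-0.17, SE 0.0601, adjusted p = 0.113). At week 16 Cacnb2 had 7.82, 9.67, 10.8 and 10.3 FPKM in CD and 7.59, 7.62, 8.08 and 7.71 in HFD mice, where the lowest CD mouse, CD401, lay within the HFD range (-0.28, adjusted p = 0.0655), and the difference passed without CD401 (-0.365, adjusted p = 0.00967), with 4.13% of all genes called lower. Cacna1c was lower without overlap at week 8, with 6.81 to 7.77 FPKM in CD and 5.45 to 6.63 in HFD mice (-0.18, SE 0.0761, adjusted p = 0.146). At week 20 a single HFD mouse, HFD511 (7.37 FPKM), lay above all CD mice (6.61 to 7.09) and the others had 5.24 to 5.61, and without HFD511 the difference passed (-0.29, adjusted p = 0.0149), in the fit that called 9.55% of all genes lower. Under median ratio scaling the week 8 values of Cacna1a and Cacna1c overlapped. Cacnb3 overlapped between the diets at all 6 weeks, with differences from -0.22 at week 4 to +0.23 at week 20, none past the threshold.

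**Figure D2:**
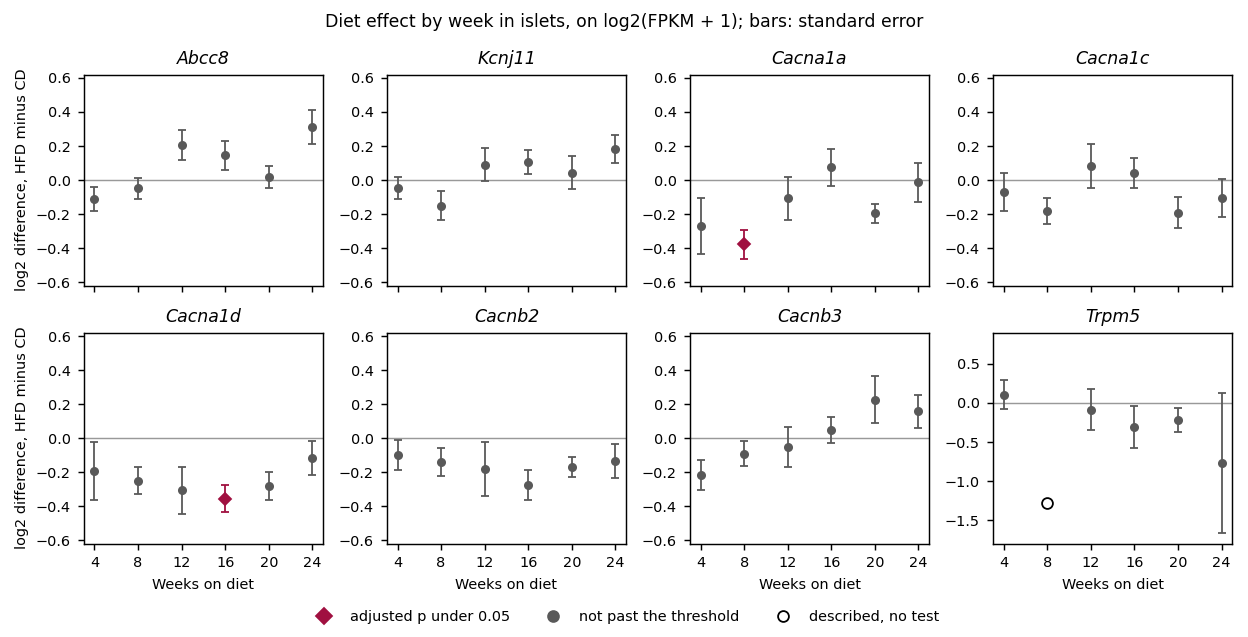
Difference between HFD and CD islets on log2(FPKM + 1), with its standard error from limma, against weeks on diet, for the 8 genes above the filter. Diamonds passed at an adjusted p under 0.05 (Cacna1a at week 8, Cacna1d at week 16), and the open circle is Trpm5 at week 8 (-1.27), described without a test. The Trpm5 panel has a wider axis, and its long bar at week 24 goes with the value of 1.77 FPKM in HFD614.

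To pool the weeks, 40 islet libraries of weeks 4, 12, 16, 20 and 24 were fitted together and the diet effect averaged over the 5 weeks. Week 8 was left out of this fit because it had led to Trpm5. Cacna1d (-0.25, SE 0.0609, limma adjusted p = 0.00157) and Cacnb2 (-0.17, SE 0.052, adjusted p = 0.00978) fell, each with a difference below 0 at 5 of 5 weeks. Abcc8 rose (+0.115, SE 0.0406, adjusted p = 0.0257), with a difference above 0 at 4 of the 5 weeks. In this fit 16.3% of 12314 tested genes were called lower and 19.7% higher, so 2 lower and 1 higher of the 8 genes lie close to the share of all genes. Kcnj11 (+0.075, adjusted p = 0.119), Cacna1a (-0.10, adjusted p = 0.181), Cacna1c (-0.05, adjusted p = 0.482), Cacnb3 (+0.03, adjusted p = 0.654) and Trpm5 (-0.25, SE 0.206, adjusted p = 0.348) did not pass. The Trpm5 mean includes a week 24 difference of -0.763, which changed sign without HFD614, as given below.

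Of these calls, that of Cacna1d held in every alternative tried, including leaving out each week and each of the 40 libraries in turn. Cacnb2 did not pass without week 16 (-0.145, adjusted p = 0.076) or with the insulin genes left out of the totals (-0.085, adjusted p = 0.226), nor Abcc8 without week 12 (+0.09, adjusted p = 0.119), week 16 (+0.11, adjusted p = 0.0745) or week 24 (+0.065, adjusted p = 0.239). Kcnj11 rose under median ratio scaling (+0.09, adjusted p = 0.00887), without HFD511 (+0.10, adjusted p = 0.0254) and without the insulin genes (+0.17, adjusted p = 0.00241), where 28.4%, 22.2% and 44.2% of all genes were called higher. The test of whether the diet effect differed between the weeks passed for none of the 8 genes, against 2.18% of all tested genes. Its smallest p belonged to Abcc8 (F = 3.28, adjusted p = 0.245 by limma), which passed with the insulin genes left out (F = 5.93, adjusted p = 0.0141), as 21.2% of all genes did.

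Within the diets, week 24 was compared with week 4 in the same fit. In CD islets Cacna1a rose by +0.65 on the log2 scale (SE 0.134, adjusted p = 0.000421), from 8.55, 10.1, 11.2 and 11.5 FPKM at week 4 to 20.3, 14.1, 17.0 and 15.9 at week 24, and it was the sole call among the 8 genes, beside 16.2% of all genes called higher and 14.1% called lower. In HFD islets Cacna1a rose by +0.91 (adjusted p = 1.55e-06) and Abcc8 by +0.50 (SE 0.0908, adjusted p = 3.39e-05), at a background of 33.3% called higher and 10.9% called lower. For Abcc8 the HFD values went from 216, 253, 228 and 247 FPKM at week 4 to the week 24 values above, without overlap. In CD islets the Abcc8 difference was +0.08 (adjusted p = 0.553), and whether the diets differed in this change was not tested. Without CD601, Kcnj11 fell in CD islets (-0.24, adjusted p = 0.0498), as it did under median ratio scaling (-0.23, adjusted p = 0.00559), with 14.4% and 20.6% of all genes called lower. Cacna1d rose in HFD islets (+0.34, adjusted p = 0.0404), a call that was lost under both scalings, with no filter, and without HFD112 (+0.17, adjusted p = 0.294), HFD614, HFD616 or HFD617. These are changes between end points, not steady trends: at week 12 both diets had their lowest means of Cacna1a (6.885 FPKM in CD, 6.26 in HFD) and Cacna1d (12.8 and 10.0). The labels give no date of library preparation or sequencing, so week and any such date cannot be told apart.

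**Figure D3:**
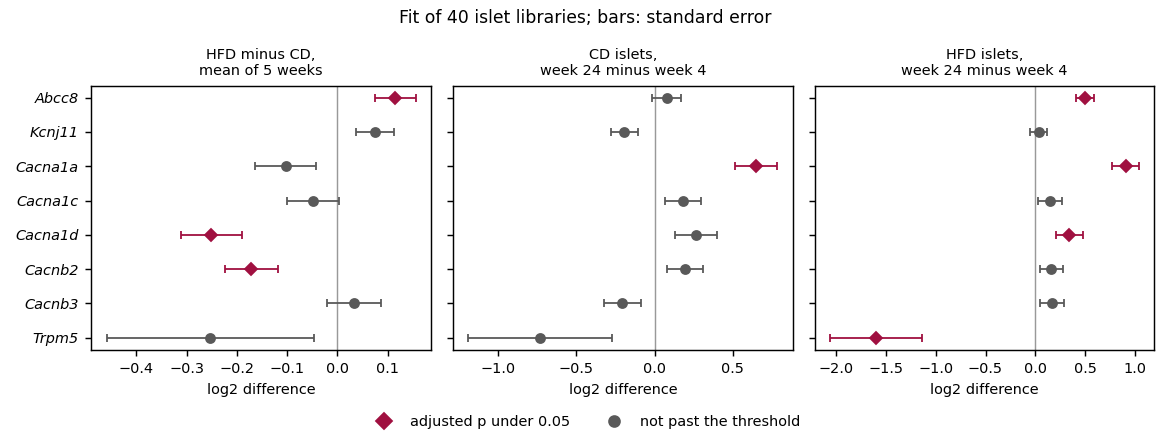
Log2 differences with standard errors from the limma fit of 40 islet libraries, for the mean diet effect over 5 weeks (left) and for week 24 minus week 4 in CD (middle) and HFD islets (right). Diamonds passed at an adjusted p under 0.05. Cacna1d and Cacnb2 lie below 0 and Abcc8 above 0 in the diet effect, and Cacna1a lies above 0 in both changes with time, with axes that differ between panels.

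Trpm5 at week 8 had 36.9, 45.0, 47.7 and 48.5 FPKM in CD and 19.5, 23.3, 9.87 and 21.7 in HFD mice. Every HFD value lay well below the lowest CD value, and the HFD mean (18.6 ± 6.02, SD, n = 4) was 58.3% below the CD mean (44.5 ± 5.28), a difference of -1.27 on the log2 scale. These values chose the gene. At week 12 the CD mice had 48.1, 75.9, 43.7 and 41.8 FPKM and the HFD mice 39.7, 72.1, 42.7 and 42.9, each group with a single high mouse and full overlap. At week 16 HFD416 (50.1 FPKM) lay above all CD mice (30.8 to 43.4) while the other HFD mice had 22.6, 24.9 and 28.0, below all of them. Without HFD416 the week 16 difference passed (-0.55, limma adjusted p = 0.0279, with 4.29% of all genes called lower), and with it the difference was -0.31 (SE 0.267, adjusted p = 0.558). At weeks 4 and 20 the groups overlapped (+0.11 and -0.22, adjusted p = 0.896 and 0.394).

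At week 24 HFD614 had 1.77 FPKM of Trpm5, and the other HFD mice had 39.2, 28.1 and 28.5, within the range of the CD mice, which had 40.6, 25.1, 24.5 and 27.6. Without HFD614 the week 24 difference turned from -0.76 to +0.13 (adjusted p = 0.675 and 0.79). Of 5172 genes with at least 10 FPKM in the other HFD mice of the week, Trpm5 was the furthest below their mean in HFD614 (-3.57 on the log2 scale), followed by Cd74 (-2.31) and Hbb-bt (-2.17), with 16 genes more than 1 below and 8 more than 1 above. No level was required in HFD614 itself, so this set favours genes that are low there over genes that are high. The mouse was looked at for its Trpm5 value, so the rank of Trpm5 is a description only. Trpm5 fell from week 4 to week 24 in HFD islets by 1.60 on the log2 scale (SE 0.46, adjusted p = 0.00562), and by 0.71 without HFD614 (adjusted p = 0.027). In CD islets the change was -0.73 (SE 0.46, adjusted p = 0.235) in the fit with HFD614, whose spread enters that SE. The CD value and the HFD value without HFD614 thus come from different fits. Whether the diets differed in this change was not tested. In the order of the 12 groups, Trpm5 ran from 52.8 FPKM at HFD week 4 to 18.6 at HFD week 8, and all 11 neighbouring pairs overlapped.

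The genes whose levels were most like those of Trpm5 over the 48 islet libraries, by Pearson r on log2(FPKM + 1) among 11635 genes with a mean of at least 1 FPKM, were Fam151a (r = 0.90), Adam32 (0.79), Maob (0.79), Cryl1 (0.78) and Tnfrsf9 (0.77). These correlations include the week 8 values that chose Trpm5, and the libraries share diets and weeks. With group means subtracted, Fam151a (0.87), Tmsb15b2 (0.78), Baiap3 (0.77), Maob (0.69) and Tmem215 (0.68) came first. Without HFD614 the Fam151a value was 0.84, and 0.73 after subtraction. In the 40 libraries without week 8, a choice made after the values were seen, the Fam151a value was 0.89, and 0.87 after subtraction, and those of the other 4 genes named first were 0.73 to 0.76 before subtraction. Fam151a had 20.2 FPKM in HFD614 against 89.1 to 92.6 in the other HFD mice of week 24.

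**Figure D4:**
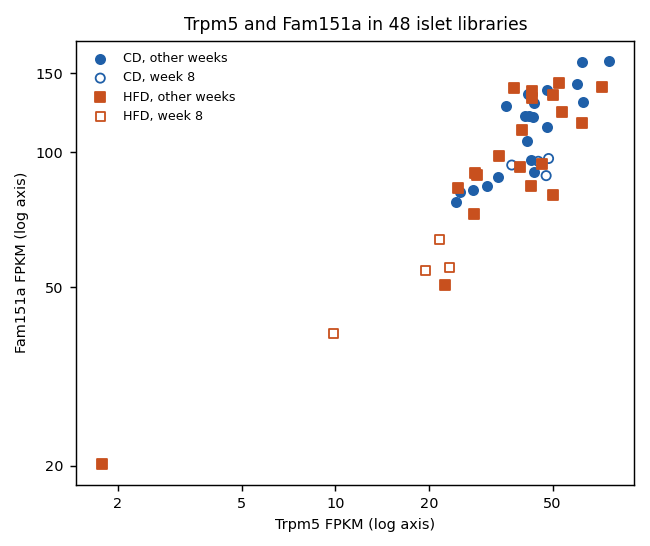
Fam151a against Trpm5 in 48 islet libraries (FPKM, both axes logarithmic), with CD as circles, HFD as squares and week 8 as open symbols. The point at the lower left is HFD614 (1.77 and 20.2 FPKM), and the open squares of HFD week 8 (9.87 to 23.3 and 39.5 to 64.0 FPKM) lie toward it, beside HFD411 of week 16 (22.6 and 50.5 FPKM).

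Kcnj5 was near the lower limit of the table, whose values have 2 decimals, so its values are given with no mean or fold. At week 8 the CD mice had 0.15, 0.14, 0.07 and 0.21 FPKM and the HFD mice were listed at 0.01, 0, 0.04 and 0.04. At week 16 the CD mice had 0.10, 0.17, 0.11 and 0.20 FPKM and the HFD mice 0, 0.03, 0.02 and 0.01. At week 24 the CD mice had 0.13, 0.15, 0.21 and 0.10 FPKM and the HFD mice 0, 0.01, 0.02 and 0. At weeks 8, 12, 16, 20 and 24 every HFD value lay below every CD value, and at week 4 the ranges overlapped (0.06 to 0.17 in CD, 0.04 to 0.08 in HFD). Among genes under the filter with a value above 0, 1.56% were lower without overlap at week 4, and 4.25%, 7.18%, 13.8%, 8.42% and 8.5% at these 5 weeks.

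In limma fits with no filter on low values Kcnj5 fell at weeks 12, 16 and 24 (adjusted p = 0.00455, 0.00716 and 0.0075), where 2.26%, 6.88% and 2.43% of all genes in these fits were called lower, and had adjusted p = 0.0659 at week 8 and 0.113 at week 20. At weeks 8 to 24 the summed alpha, delta and PP cell markers were lower in HFD islets without overlap as well, and their part in the Kcnj5 difference was not tested. The genes most like Kcnj5, sought after its values were seen, were Mlph and Kcnj12 (both r = 0.77 over 48 libraries), and after the group means were subtracted the highest r was 0.47, for Optn. Kcnj12, an inward rectifier pore of the Kir2 family, had 3.22 to 4.76 FPKM in CD and 0.03 to 0.57 in HFD islets at week 24. It was called lower at weeks 8, 12, 16, 20 and 24, beside 4.67%, 2.35%, 5.15%, 3.21% and 1.73% of all tested genes. At week 24 the log2 difference was -2.01 (limma adjusted p = 6.34e-07). At weeks 16, 20 and 24 no HFD mouse reached 1 FPKM, so Kcnj12 passed the filter through CD libraries alone. There it could come out as lower only.

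Among themselves, Cacna1a, Cacna1c, Cacna1d and Cacnb2 varied together over the 48 libraries, with r from 0.64 to 0.83 in the 6 pairs and from 0.25 to 0.66 with group means subtracted. Kcnj11 varied with Cacnb3 (r = 0.79, and 0.70 after subtraction) and with Abcc8 (0.57 and 0.53), and its r with Cacna1d was 0.13, and 0.40 after subtraction. Trpm5 had r between -0.30 and 0.27 with the 8 other genes. The genes most like Cacna1d were Arhgap21, Mllt10 and Nsd1 (each r = 0.95), Chd6 and Sbf2 (each 0.94), and after subtraction they included Asxl2 (0.91), Dicer1 (0.90), Usf3 and Usp54 (each 0.88). Those most like Abcc8 were Idua (0.87), Cc2d1b, Uckl1, Mroh1 and Rnf123, and after subtraction Abcc4 (0.88), Mapk8ip2, Kif1c, Kif1a and Pofut1. For Kcnj11 they were Lrfn4 (0.88), Foxo6, Stk11, Ppp1r9b and Lrp3, and after subtraction Lrp3 (0.84), Sall2, Hectd3, Inpp5e and Reep6. With the insulin share of a library, no gene of the 9 had an r beyond -0.41 (Kcnj5), and Cacna1d had -0.14.

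The wider channel families, counted in the mean diet effect over 5 weeks, were set beside the background of 19.7% of genes called higher and 16.3% called lower. Of 26 voltage-gated calcium channel genes 11 were tested, of which 7 fell and 0 rose. Among them, Cacna2d2 and Cacna1h reached 1 FPKM in 5 of 20 CD and 0 of 20 HFD libraries each, so they passed the filter through CD libraries alone and could enter this count as lower only. Beside Cacna1d and Cacnb2 the 7 genes were Cacng4 (-0.79), Cacna2d2 (-0.46), Cacna1h (-0.38), Cacna1b (-0.18) and Cacna2d1 (-0.13). Cacng4, Cacna2d2 and Cacna1h, a T-type pore, were low, with means of 1.29, 0.70 and 0.698 FPKM, and Cacna2d1, an alpha2delta subunit, had 24.0 FPKM. Of the 4 KATP genes 3 were tested and 2 rose, Abcc8 and Abcc9 (+0.28, adjusted p = 6.5e-05), the latter encoding the SUR2 receptor of vascular and muscle channels, at a mean of 1.27 FPKM. At week 24 Abcc9 had 1.09 to 1.31 FPKM in CD and 1.94 to 2.99 in HFD islets, in the libraries with higher endothelial and stromal markers, whose part was not tested.

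Of 15 inward rectifiers 3 were tested and 2 fell, Kcnj12 (-1.42) and Kcnj6 (-0.16), the GIRK2 pore. Of 26 TRP channel genes 10 were tested, with Trpc4 (+0.38) and Mcoln1 (+0.13) higher and Mcoln3 (-0.76), Trpm2 (-0.43) and Trpm7 (-0.17) lower. Trpm4, which like Trpm5 is opened by calcium, had a mean of 3.42 FPKM (2.53 to 4.99) and did not pass. Mcoln3 was low (mean 1.24 FPKM) and reached 1 FPKM in 17 of 20 CD and 4 of 20 HFD libraries. Of 21 voltage-gated and background potassium channel genes 14 were tested, and 2 rose and 7 fell, among them Kcnk1 (+0.27), Kcnk3 (-1.04), Kcna5 (-0.57) and Kcnq1 (-0.41). Kcnk3, Kcna5 and Kcnq1 were low too, with means of 2.86, 1.1 and 1.19 FPKM. They reached 1 FPKM in 20, 19 and 19 of 20 CD libraries, and in 10, 6 and 6 of 20 HFD libraries. Of 24 genes of calcium stores 20 were tested, with Stim1 (+0.10) and Calm3 (+0.09) higher and the IP3 receptors Itpr1 (-0.65) and Itpr3 (-0.51) and the sodium-calcium exchanger Slc8a1 (-0.28) lower. Of 13 genes of taste-type signalling, the pathway in which TRPM5 acts in taste cells, 5 were tested and Itpr3 alone fell. Gnat3 and Tas1r2 did not pass 0.12 and 0.04 FPKM in any islet library. Tas1r1 (0.12 to 0.61 FPKM) and Tas1r3 (0.31 to 1.04) were low but above 0 in every islet library. In the same fit 6 of 6 alpha, 4 of 4 delta and 2 of 2 PP cell markers fell, as did 10 of 15 acinar markers. Of 10 beta cell markers 4 rose and 1 fell, and of 8 macrophage markers 5 rose and 0 fell. The part of these cell types in the values of the channel lists was not tested.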

How the data were processed

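Islet and liver RNA was sequenced on a BGISEQ-500 from 96 libraries. The authors deposited FPKM per gene and library, rounded to 2 decimals; per the labels the tools were HISAT2 2.0.4, Bowtie2 2.2.5, RSEM 1.1.12 and DESeq2, on GRCm38.p5, and their roles and order are not given in the sources used here. Columns with the authors' group means, fold changes, p-values and module assignments were not used. The members and lists were chosen with earlier results of these data known.

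Groups came from the sample labels. FPKM were transformed to log2(FPKM + 1) and fitted by limma 3.58.1 in R 4.3.3, with trend and robust options, keeping a gene where 4 or more libraries reached 1 FPKM. Adjusted p-values are Benjamini-Hochberg values over all genes tested, and calls have no minimum fold. The mice are separate animals. Log2 differences understate the change of low genes. The steps were tested on simulated data. Named genes are the 9 genes, the genes of the channel and marker lists that passed or were highest expressed, and, for each of Trpm5, Abcc8, Kcnj11 and Cacna1d, the 5 genes with the highest correlation, with and without the group means subtracted. Kcnj5 was added to that rule, and Cd74 and Hbb-bt were named, after their values were seen. Some genes that the rule names are not reported here. The remaining steps ran in Python 3.11.15 (pandas 2.3.3, numpy 2.4.6), and plots were drawn by matplotlib 3.10.9.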

Additional observations from a re-analysis of the deposited data

Results flagged for a closer look

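Of 108 sets of 4 libraries, 1 for each gene, diet and week, 2 held a library whose gap to the nearest other, as a share of the whole range of the set, was above the 95% critical value of Dixon. About 1 in 20 such sets would be marked by chance. Cacna1a in HFD islets at week 20 had 14.86 FPKM in HFD511, below the 16.34 to 16.53 FPKM of the other mice. Trpm5 in HFD islets at week 12 had 72.08 FPKM in HFD315, above the 39.73 to 42.93 FPKM of the other mice. The Trpm5 value of 1.77 FPKM in HFD614 did not exceed that limit, since the other mice of its group ranged from 28.1 to 39.2.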

How the results depend on the processing

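In the diet comparison of single weeks, 1 channel gene was called at week 8 and 1 at week 16, and 0 in the remaining weeks. With no filter on low values the counts from week 8 to week 24 were 0, 1, 2, 0 and 1, with Kcnj5 added at weeks 12, 16 and 24. Under median ratio scaling it was 0 at week 8, with all 48 islet libraries in 1 fit 0 at weeks 8 and 16 and 1 at week 24, and with Ins1 and Ins2 left out of the totals 2 at week 12, 4 at week 16 and 2 at week 20. Those fits without the insulin genes called 25.7%, 41.1% and 1.24% of all genes higher and 1.67%, 3.63% and 9.01% lower at weeks 12, 16 and 20. With each library left out in turn the count ranged from 0 to 0 at week 4, 0 to 2 at week 8, 0 to 1 at week 12, 1 to 2 at week 16, 0 to 2 at week 20 and 0 to 1 at week 24. The mean effect over 5 weeks called 3 genes, 1 without week 16, and 1 to 4 with each week or library left out. Dependence on week was called for 0 genes, 1 without the insulin genes, and 0 to 0 with a library left out. The change over time was called for 1 gene in CD islets, 2 under median ratio scaling and 1 to 2 with a library left out, and for 4 in HFD islets, 3 to 4 with a library left out. Counts of genes without overlap under other scalings, and the mean effect and its dependence on week with single libraries left out, were chosen after seeing the data. Under median ratio scaling the counts without overlap were 2 lower at week 8, 1 higher at week 12, and 2 lower and 2 higher at week 24, and without the insulin genes 2 higher at week 12, 1 lower and 2 higher at week 16, and 0 higher at week 24, against 4 lower at week 8, 0 higher at week 12, 2 lower and 0 higher at week 16, and 1 lower and 1 higher at week 24 in the report. The week 8 counts include Trpm5, whose fall at that week chose it. Shares over all genes were not computed under these scalings, so no result about these genes is drawn from the counts. The causes were not tested.

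None of the following differences, which changed sign, passed. Under median ratio scaling they were 0.002 for Kcnj11 at week 4, 0.081 for Abcc8 and 0.034 for Cacnb3 at week 8, and -0.102 for Kcnj11 over time in HFD islets. Without the insulin genes they were 0.001 for Kcnj11 at week 4, 0.143, 0.072, 0.231 and 0.202 for Cacna1a, Cacnb2, Cacnb3 and Trpm5 at week 12, -0.052 for Abcc8 and -0.025 for Kcnj11 at week 20, 0.014 for Cacna1a at week 24, and 0.029 for Cacna1c in the mean effect. With a library left out the ranges were -0.151 to 0.027 for Cacna1c and -0.042 to 0.225 for Trpm5 at week 4, -0.007 to 0.19 for Cacna1c, -0.185 to 0.043 for Cacnb3 and -0.277 to 0.106 for Trpm5 at week 12, -0.012 to 0.142 for Cacna1a, -0.006 to 0.12 for Cacna1c and -0.006 to 0.087 for Cacnb3 at week 16, -0.028 to 0.051 for Abcc8 at week 20, -0.09 to 0.085 for Cacna1a and -1.16 to 0.126 for Trpm5 at week 24, and -0.01 to 0.071 for Kcnj11 over time in HFD islets. In the mean effect Cacnb3 ranged from -0.015 (without week 20) to 0.096.

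Over all genes, the total called at week 8 was 613, with 154 to 949 under the other settings and 116 to 1787 with a library left out. At week 16 it was 988, with 961 to 5226 and 756 to 1069, at week 20 555, with up to 1201 and 140 to 2207, and at week 24 972, with 856 to 1620 and 563 to 1199, while the other settings gave up to 3093 at week 12. Dependence on week was called for 268 genes, with 240 to 2608 under the other settings. Of all calls from week 8 to week 24, 11.4%, 48.1%, 39.1%, 32.3% and 79.1% were higher in HFD islets, as were 54.8% in the mean effect and 75.4% over time in HFD islets. Under median ratio scaling the week shares were 59.8%, 59.4%, 53.3%, 61.7% and 61.0%, and the share over time in HFD islets 50.6%. Without the insulin genes the shares for weeks 12, 16 and 20 were 93.9%, 91.9% and 12.1%, and that of the mean effect 84.9%. No paired analysis was possible because the CD and HFD islets came from different mice that share no number, and no comparison between islets and liver was tested. The files hold no read counts, so what depth limits could not be given, and Kcnj5 values near 0 rest on 2 decimals.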
